A study of Mus musculus with 12 samples.

Results

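The genes described here encode 10 transcription factors of myeloid and blood stem or progenitor cells: the C/EBP factors Cebpa, Cebpb and Cebpd, the repressors Gfi1 and Gfi1b, Gata2, the runt factors Runx1 and Runx2, and the stem cell factors Lmo2 and Lyl1. They were chosen by symbol, and all 10 of them were found among the 51826 genes of the count table. Their RNA was compared between bone marrow-derived C57BL/6 pre-B cell lines carrying an empty pMIG retroviral vector (EV) and lines carrying pMIG with the fusion kinase BCR-ABL1, 6 of each. Each of 2 mice gave 3 lines per condition, named by mouse number and letter (1A to 2C), and the labels call the cells pro-/pre B cells. The age of the mice is not given in the sources used here. Marrow was cultured for 7 days in IL7, the cytokine that pre-B cells need to grow, and kept in it for 48 h after transduction. The lines with BCR-ABL1 then went without IL7 for 1 week, and those with EV stayed in it and were sorted for GFP, the vector's marker, before RNA was prepared. BCR-ABL1, IL7 withdrawal and the sort therefore cannot be told apart in any comparison of the conditions.

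B cells and myeloid cells arise from shared progenitors, and the balance of transcription factors decides which program a cell keeps. C/EBPα and C/EBPβ can turn B lineage cells into macrophages when they are forced on, and GATA2 maintains stem cells and directs mast cell, basophil and megakaryocyte fates. RUNX1 opens hematopoietic enhancers and is needed in early B cells as well. LMO2 bridges LYL1 or TAL1 to GATA factors in a DNA-binding complex. GFI1 and GFI1B are related zinc finger repressors that recruit a histone demethylase complex, and GFI1 takes part in lymphoid as well as granulocyte differentiation. The levels of these genes show whether myeloid or stem cell regulators were expressed in the transformed cells.

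In these lines the RNA of the myeloid determinants was close to absent in both conditions. Cebpa, Cebpb, Cebpd, Gata2 and Runx2 had 0 to 19 counts per line and were too low to test, whereas Lyl1, Runx1 and Gfi1b were well expressed. Among the 5 genes that passed the count filter, 0 were called changed over all 12 lines by edgeR's glmTreat test against a 1.5-fold change at an adjusted p (FDR) of 0.05, while 12.5% of the 15038 tested genes were called (5.99% higher and 6.49% lower in BCR-ABL1 lines). At an unadjusted p under 0.05 the same test gave 1 member, Lmo2. A likelihood ratio fit called 1 member higher, Lmo2, as it did 6.82% of genes, and DESeq2 called 0 members and 9.64% of genes in either direction. Gfi1 was lower in the BCR-ABL1 lines of each mouse, but its level differed so much between the mice that this was called only where the mouse was taken into account. The median log2 fold change was 0.36 over the 5 tested members and -0.02 over all tested genes.

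Total counts ranged from 34791011 in EV line 2A to 66011225 in BCR-ABL1 line 2B, so that 3 counts, taken as the floor, equalled 0.0433 to 0.0920 CPM, the counts scaled to library size by TMM. The B lineage was plain in every line, since all 11 B lineage markers examined, among them Cd79a, Cd79b and Pax5, passed the filter, and their sum per line came to 4544 to 7965 CPM with EV and between 3760.5 and 4485 CPM with BCR-ABL1. Of these, 2 were called lower, Cd22 and Ighm, and 0 higher. Stromal markers summed to 1.69 CPM in EV line 2A and at most 0.298 CPM in any other line. Of the 7 T and NK markers, 2 passed the filter, and the list summed in mouse 1 to 0.578 to 0.845 CPM with EV and at least 1.15, at most 3.76 CPM with BCR-ABL1. In mouse 2 the order was opposite, with EV between 1.17 and 2.24 CPM and BCR-ABL1 between 0.415 and 0.669 CPM. Cd3d, a subunit of the T cell receptor complex, was called lower (log2 fold change -2.67, FDR = 0.000511 by edgeR), at no more than 0.644 CPM in any line. Klrb1c, an NK cell receptor, was not called (log2 fold change 1.45, FDR = 0.497 by edgeR), and its effect differed between the mice (interaction FDR = 0.000288). Lines of mouse 1 held 119.6 to 130.3 CPM of the Y-linked gene Eif2s3y and at most 1.13 CPM of Xist. Lines of mouse 2 held at most 0.0613 CPM of Eif2s3y and 581 to 1401 CPM of Xist. Mouse and sex thus cannot be told apart here, and the lines of mouse 1 differed from the study's description of the wild-type marrow donors as female. The 2 EV lines 2A and 2B also stood apart in the breadth of their RNA. A count was present in 57.4% of the 36788 untested genes in EV line 2A and 36.7% in EV line 2B, against 27.9% in EV line 1A and 14.2% to 20.6% in the 9 other lines.

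The C/EBP factors are the central drivers of granulocyte and macrophage genes. Cebpa (ENSMUSG00000034957, GRCm38 chr7:35119293-35121928, plus strand) is the factor that granulocyte progenitors require. It had 1, 3, 0, 4, 4 and 0 counts in EV lines 1A, 1B, 1C, 2A, 2B and 2C. In the BCR-ABL1 lines, in the same order, it had 0, 0, 0, 0, 1 and 1 counts. The highest value of the 12 lines was thus 4 counts, in EV lines of mouse 2, and every BCR-ABL1 line was at or under the floor. The groups overlapped at 0, and an exact permutation test over all labelings of the lines gave p = 0.119 (two-sided). Levels this low come from bulk RNA, in which fewer cells of a type and less RNA per cell cannot be told apart.

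Cebpb (ENSMUSG00000056501, chr2:167688915-167690418, plus strand) encodes the C/EBP factor of inflammatory macrophages and emergency granulopoiesis. It had 0, 2, 0, 5, 8 and 18 counts in EV lines and 3, 3, 5, 6, 11 and 8 in BCR-ABL1 lines. In mouse 1 all BCR-ABL1 lines lay above all EV lines, by at most 5 counts against 2, whereas in mouse 2 the conditions overlapped. Among tested genes, at least 15.7% also lay higher without overlap in mouse 1, the share that did so in both mice. Over all lines the exact permutation p was 0.429, and 0.195 when lines were exchanged only within a mouse. Cebpd (ENSMUSG00000071637, chr16:15887286-15891031, plus strand), an acute phase C/EBP factor, had 5, 0, 1, 16, 12 and 5 counts in EV lines and 10, 6, 4, 8, 5 and 10 in BCR-ABL1 lines. The groups overlapped in both mice, with an exact permutation p of 0.554. Both genes share exons on the opposite strand with better expressed neighbours. Tmem189 overlaps Cebpb at 15.8 to 24.2 CPM over all lines and Spidr overlaps Cebpd at 26.9 to 44.4 CPM, and the strand setting of the counting is not given in the sources used here.

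Gata2 (ENSMUSG00000015053, chr6:88193891-88207032, plus strand) had 3, 0, 0, 12, 5 and 0 counts in EV lines and 1, 0, 0, 0, 0 and 1 in BCR-ABL1 lines. A single line, EV 2A, held 12 of these counts, and the exact permutation p was 0.182. Runx2 (ENSMUSG00000039153, chr17:44495987-44814797, minus strand), the runt factor of bone formation that is also found in plasmacytoid dendritic cells, had 1, 3, 1, 19, 14 and 8 counts in EV lines and 2, 3, 3, 7, 15 and 10 in BCR-ABL1 lines. Its lines split by mouse rather than by condition: lines of mouse 1 had at most 3 counts and lines of mouse 2 at least 7, and the exact permutation p between conditions was 0.998. Summed over these 5 low genes, the counts were 10, 8, 2, 56, 43 and 31 in EV lines and 16, 12, 12, 21, 32 and 30 in BCR-ABL1 lines. The highest sum, 56 counts or 1.72 CPM, was in EV line 2A, the line in which untested genes as a whole were most often detected. Whether this breadth set the low counts was not tested. At this depth no difference between conditions over all lines was detectable for any of the 5 genes. In a fit without the count filter, over 40750 genes, none of them was called by edgeR, with the lowest FDR at 0.228 for Gata2. Between the mice within EV the same fit, examined after the values were seen, called Cebpb, Cebpd and Runx2 higher in mouse 2, with log2 differences of 4.03, 2.78 and 3.40 (FDR = 0.00161, 0.0151 and 0.000970 by edgeR), as it did 5.07% of genes. Without EV line 2A, Cebpb and Runx2 were called (FDR = 0.000246 and 0.0164 by edgeR) and Cebpd was not. Within BCR-ABL1 none of the 5 was called between the mice. Supt3, which overlaps Runx2 on the opposite strand, was at 4.48 to 9.41 CPM over all lines.

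**Figure D1:**
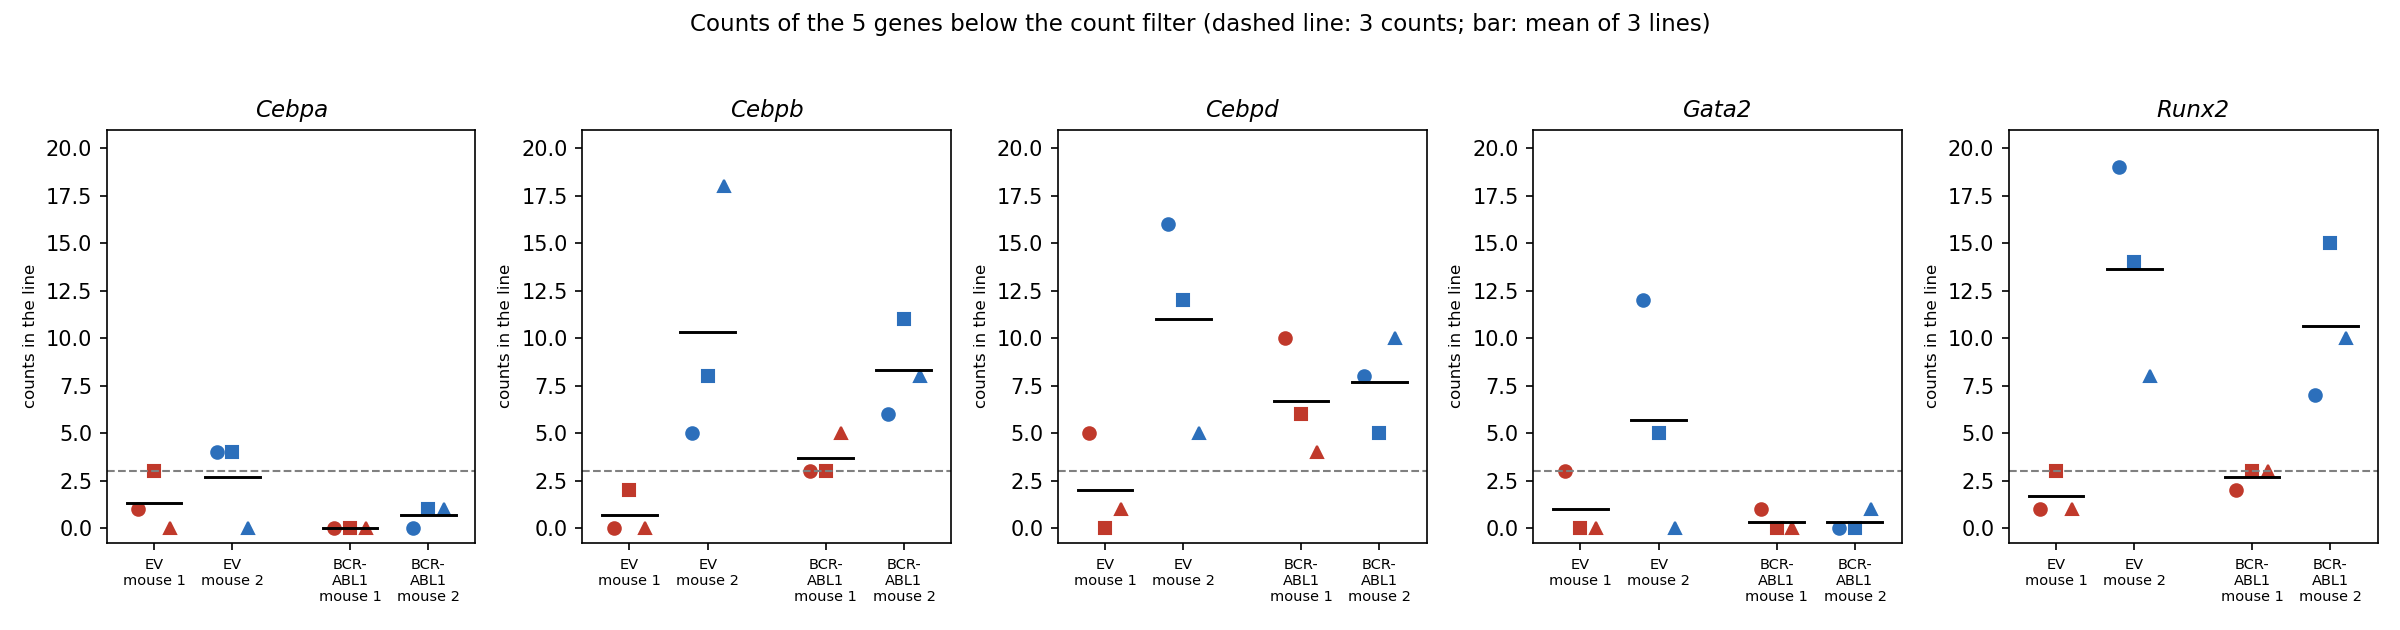
Counts per line (vertical axis, linear, raw counts) of Cebpa, Cebpb, Cebpd, Gata2 and Runx2 in EV and BCR-ABL1 lines of each mouse, with a bar at the mean of 3 lines and a dashed line at 3 counts. No line reached 20 counts for any gene, and the Runx2 counts of mouse 2 lie above those of mouse 1 in both conditions.

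Most genes that these factors switch on were also too low to test. Of 16 known C/EBP targets in granulocytes and monocytes, 2 passed the filter, Csf2ra and Il6ra, and 0 were called, with log2 fold changes of -0.20 and -0.22. With the mouse as a block these were -0.145 and 0.245, so that Il6ra changed direction, and again 0 were called. Csf2ra, a subunit of the GM-CSF receptor, was well expressed, between 9.20 and 21.8 CPM with EV and between 10.7 and 15.3 CPM with BCR-ABL1. In every line 8 of the 16 had at most 3 counts, including the neutrophil protease genes Elane and Ctsg and the calprotectin genes S100a8 and S100a9. Of 10 GATA2 targets of mast cells, basophils and megakaryocytes, 1 passed the filter. This was Itga2b, the platelet integrin αIIb, with EV between 1.84 and 2.28 CPM and BCR-ABL1 between 0.863 and 1.70 CPM. It was called lower (log2 fold change -0.99, SE 0.15, FDR = 0.0470 by edgeR). Of 10 granulocyte markers, 0 passed the filter. In mouse 1 they summed to between 0.0578 and 0.226 CPM with EV and, without overlap, between 0.543 and 0.636 CPM with BCR-ABL1. In mouse 2 the EV lines held 1.10 CPM in line 2A and 0.298 and 0.180 CPM in lines 2B and 2C, and the BCR-ABL1 lines between 0.208 and 0.270 CPM. Among tested genes, at least 15.7% also lay higher without overlap in mouse 1, the share that did so in both mice. Most of the BCR-ABL1 sum in mouse 1 was Ly6g, with up to 24 counts in a BCR-ABL1 line and 4 in an EV line. Prtn3 and Mpo had at most 9 and 3 counts in any BCR-ABL1 line. The other granulocyte markers, Elane, Ctsg, S100a8, S100a9, Ngp, Camp and Ltf, had 0 counts in every BCR-ABL1 line. Mast cell and basophil markers summed to at most 0.429 CPM in any line. Of the 8 monocyte and macrophage markers, 1 passed the filter, Mpeg1. Their sum was highest in EV line 2C at 14.0 CPM, of which Mpeg1 was 13.4, and with BCR-ABL1 it stayed between 2.14 and 3.73 CPM. The conditions did not overlap in mouse 1, where the EV lines summed to 0.230 to 0.476 CPM and the BCR-ABL1 lines to between 2.14 and 3.66 CPM. In mouse 2 they overlapped, with EV lines at 2.19 to 14.0 CPM. The effect on Mpeg1 differed between the mice by the interaction (FDR = 0.00262 by edgeR).

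Gfi1 differed both between the mice and between the conditions within each mouse, and its gap between the mice was the largest among the tested members. It lies on chromosome 5 (ENSMUSG00000029275, chr5:107716657-107726036, minus strand) and encodes a repressor that binds DNA at a core of AATC. In mouse 1 it measured 22.3, 19.5 and 19.0 CPM in EV lines 1A, 1B and 1C, and 8.12, 5.50 and 6.43 CPM in BCR-ABL1 lines 1A, 1B and 1C. In mouse 2 it measured 0.460, 0.0993 and 0.361 CPM in the EV lines, which are 15, 5 and 20 counts. The BCR-ABL1 lines of mouse 2 had 2, 1 and 1 counts, under the floor. Every BCR-ABL1 line was below every EV line of its own mouse, as was the case for 16.8% of tested genes, while the BCR-ABL1 lines of mouse 1 lay above the EV lines of mouse 2.

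Because of this gap the comparison over all lines did not call Gfi1 (log2 fold change -1.62, SE 2.05, FDR = 0.873 by edgeR's glmTreat). With the mouse as a block the log2 fold change was -2.10 (SE 0.31) and Gfi1 was called (FDR = 0.00573), as were 7.18% of tested genes in this direction. Within mouse 1 the log2 fold change was -1.60 (SE 0.18, FDR = 0.00865), where 7.44% of genes were called lower. Within mouse 2 it was -3.49 (SE 0.60, FDR = 0.00412), where 6.66% were called lower. This SE is on log2 CPM with a prior count of 2, which at such low counts is not the scale of the fitted -3.49. Gfi1 passed the count filter through the lines of mouse 1, and it was dropped at the filter when the lines of mouse 2 were fitted alone. Since the BCR-ABL1 counts of mouse 2 sum to 4, the fold there is better read from the counts. EV exceeded BCR-ABL1 by 12.0-fold (95% counting interval 4.33 to 46.1) in mouse 2 and by 2.96-fold (2.76 to 3.18) in mouse 1, and these intervals cover counting error only. The exact permutation p within mice was 0.005, the smallest that 400 labelings can give, against 0.368 over all labelings. Whether the effect differed between the mice was tested as an interaction, which was not called (log2 difference -1.89, FDR = 0.101 by edgeR), while 16.9% of tested genes were. Without EV line 2B (FDR = 0.00532) or without the count filter (FDR = 0.0292 by edgeR) the Gfi1 interaction was called. Those fits called the interaction in 2991 of 15255 and 3242 of 40750 genes.

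The gap between the mice was itself larger than the effect of the condition. EV lines of mouse 1 exceeded those of mouse 2 by 69.6-fold (51.0 to 97.6), and BCR-ABL1 lines by 282-fold (110 to 1036, counting intervals from 3774 against 40 and 1025 against 4 counts). In the test between mice Gfi1 was lower in mouse 2 within EV (log2 difference -6.09, FDR = 1.79e-06) and within BCR-ABL1 (-7.98, FDR = 1.31e-05 by edgeR), where 2.02% and 1.16% of tested genes were called lower. By that difference it ranked 15th and 10th from the lowest of 15038 genes. No other member past the count filter was called between the mice, a filter that Gfi1 passed through mouse 1. Without the filter, 6 members were called between the mice within EV: Gfi1, Gfi1b, Lmo2, Cebpb, Cebpd and Runx2. All but Gfi1 were higher in mouse 2, as were 5.07% of 40750 genes. EV lines 2A and 2B had the widest detection of untested genes, whose part in these calls was not tested. Genes whose pattern over the 12 lines was most like that of Gfi1 were chosen after the values were seen. Among 11053 genes these were Kif13a, a kinesin (Pearson r of log2 CPM 0.968), and Fgf13, an intracellular growth factor homologue (r 0.966). The Y-linked gene Eif2s3y also ranked among the most alike (r 0.956), and mouse and sex cannot be told apart here. The points share mouse and library, so these correlations are descriptions. In mouse 1, Kif13a lay between 27.0 and 31.0 CPM with EV and between 13.0 and 17.0 CPM with BCR-ABL1, and it was at most 0.276 CPM in any line of mouse 2.

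The noncoding gene A430072P03Rik overlaps Gfi1 exon to exon on the opposite strand and followed it across the lines (r 0.983), at up to 2.25 CPM. Reads of the pair cannot be told apart if strand was not used in the counting. The regulatory sequence of the GFI genes is shown because both proteins bind the same core. The sequences are RefSeq's for GRCm38.p6, which held 8 of the 10 members, and AATC was searched on both strands, so that GATT is a match too. In the 250 bases before a start, Gfi1b had 4 matches. The upstream Gfi1 start had 1 match and the downstream start 0. Of 32851 promoters of this length, 69.02% held at least 1 match and 7.04% at least 4. The Gfi1b stretch is chr2:28621983-28622232 on the minus strand. The Gfi1 stretch of 30 bases is chr5:107725989-107726018 on the minus strand, which is also transcribed as a 5′ untranslated region in 1 annotated Gfi1 transcript. Capitals mark the core.
Gfi1: ctcccgaaagcaaGATTcagtttgcacact
Gfi1b: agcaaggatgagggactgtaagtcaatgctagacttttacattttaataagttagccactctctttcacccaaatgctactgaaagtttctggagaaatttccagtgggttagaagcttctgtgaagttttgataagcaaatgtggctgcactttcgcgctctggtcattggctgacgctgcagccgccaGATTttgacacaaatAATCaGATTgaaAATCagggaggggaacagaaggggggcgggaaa

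Gfi1b, the repressor of erythroid and megakaryocyte cells (ENSMUSG00000026815, chr2:28609450-28621982, minus strand), had a lower mean in BCR-ABL1 lines but was not called. The EV lines of mouse 1 had 13.5, 10.1 and 12.3 CPM and those of mouse 2 had 22.2, 40.2 and 14.3 CPM. The BCR-ABL1 lines had 8.24, 10.7 and 9.32 CPM in mouse 1 and 12.4, 11.1 and 10.6 CPM in mouse 2. In mouse 2 every EV line was above every BCR-ABL1 line. This held for at least 16.8% of tested genes, the share lower without overlap in both mice. The highest Gfi1b level of all was in EV line 2B. In mouse 1 the conditions overlapped. The log2 fold change was -0.85 (SE 0.31, FDR = 0.328 by edgeR), and the exact permutation p was 0.0216 over all labelings and 0.01 within mice. Without EV line 2B the log2 fold change was -0.49 (FDR = 1 by edgeR). Against no change rather than a 1.5-fold change the FDR was 0.0351, a test that called 48.5% of all tested genes. The values were -0.34 (SE 0.17) in mouse 1 and -1.17 (SE 0.44, FDR = 0.0782 by edgeR) in mouse 2, and the interaction was not called (FDR = 0.219). Without EV line 2C the Gfi1b interaction was called (FDR = 0.00921 by edgeR). That fit called 5522 of 15330 genes, against 16.9% of tested genes in the main fit. Erythroid and megakaryocyte markers, of which 3 of 8 passed the filter, summed to between 3.12 and 9.08 CPM with EV, the highest in line 2B, and between 6.77 and 13.6 CPM with BCR-ABL1. Most of the BCR-ABL1 sum was Hbb-bt, a β-globin, at 5.71 to 12.4 CPM, which was called higher (log2 fold change 1.72, FDR = 0.0296 by edgeR), whereas Itga2b of the same list was called lower. Their part in the Gfi1b result was not tested.

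**Figure D2:**
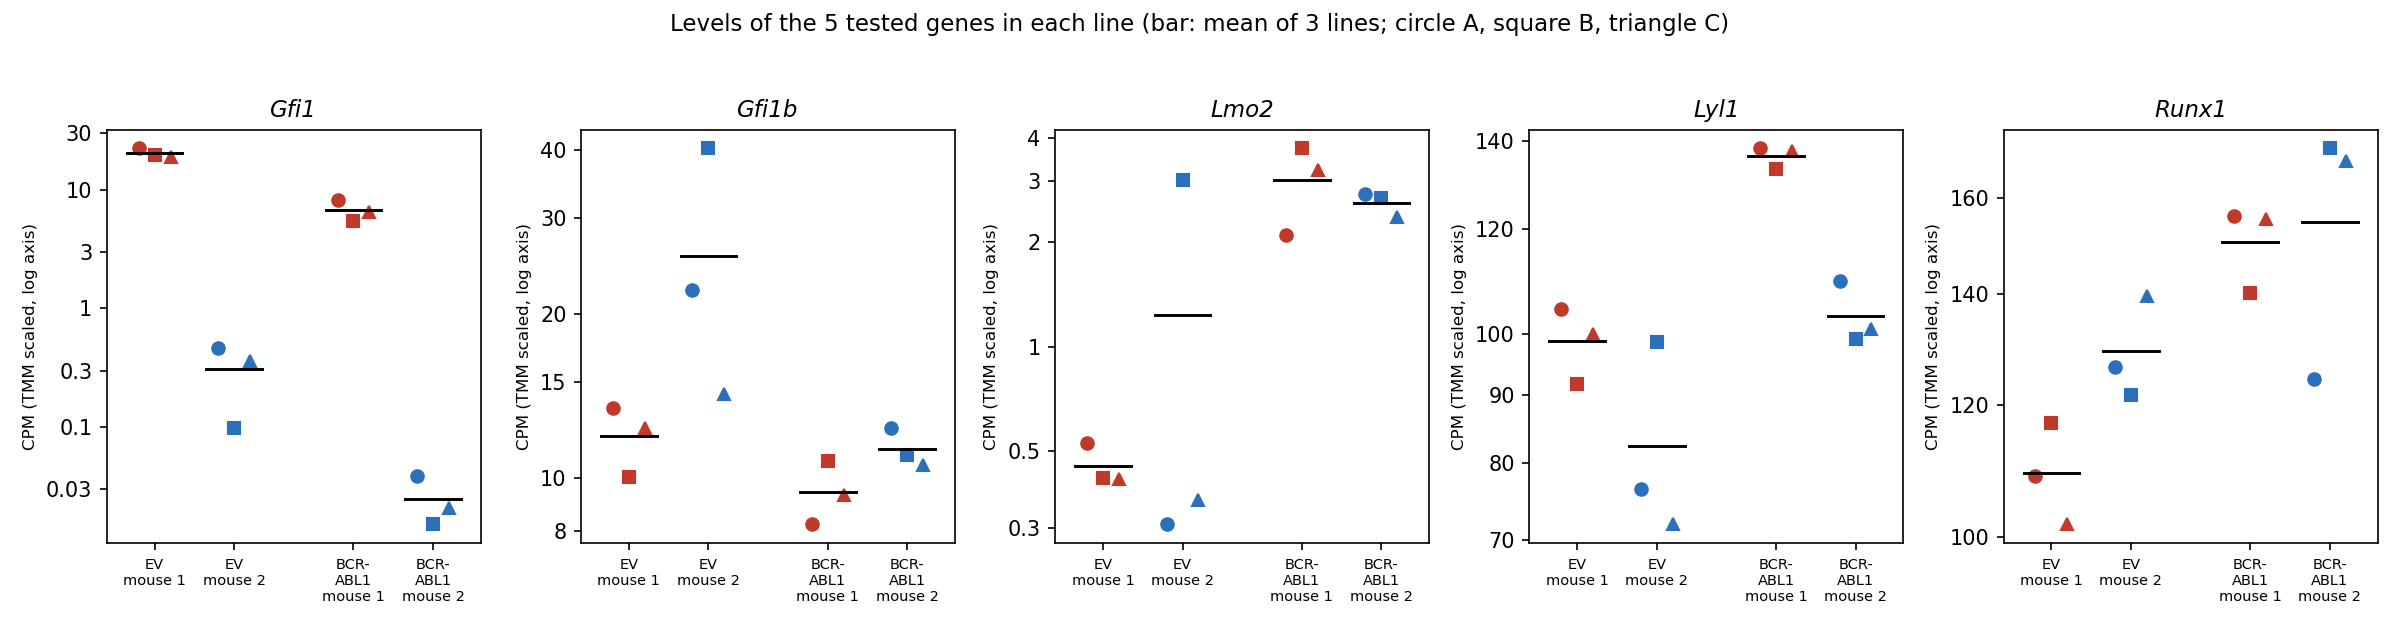
CPM per line (vertical axis, logarithmic, different in each panel) of the 5 tested genes in EV and BCR-ABL1 lines of each mouse, with symbols for line letters and a bar at the mean of 3 lines. Gfi1 in mouse 2 lies below 0.5 CPM in all lines, and EV line 2B reaches 3.04 CPM of Lmo2, inside the range of the BCR-ABL1 lines.

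Lmo2, the LIM-only bridge of the stem cell complex (ENSMUSG00000032698, chr2:103957986-103981878, plus strand), was low in 5 of 6 EV lines and higher in all BCR-ABL1 lines but not apart from the sixth EV line. It had 0.527, 0.419 and 0.415 CPM in EV lines of mouse 1, and 0.307, 3.04 and 0.361 CPM in EV lines 2A, 2B and 2C. The BCR-ABL1 lines had 2.10, 3.74 and 3.25 CPM in mouse 1 and 2.75, 2.69 and 2.37 CPM in mouse 2. EV line 2B, with 153 counts where the other EV lines had 10 to 29, lay inside the BCR-ABL1 range. In mouse 1 the conditions did not overlap. This held for at least 15.7% of tested genes, the share higher without overlap in both mice. Over all lines the fold was 3.33 (log2 fold change 1.73, SE 0.49), and Lmo2 was not called (FDR = 0.104 by edgeR). With the mouse as a block it was not called either (log2 fold change 1.88, FDR = 0.0701 by edgeR). Pairing lines by number and letter called it (2.33, FDR = 0.0314 by edgeR), as it did 923 genes in this direction. Without EV line 2B the log2 fold change was 2.77 and Lmo2 was called (FDR = 1.63e-05), as were 6.44% of tested genes in this direction. Within mouse 1 it was 2.74 (SE 0.27, FDR = 0.0227 by edgeR, 11.9% of genes called higher) and within mouse 2 it was 1.05 (SE 1.02, FDR = 0.608, 6.25% called higher). The interaction was not called (FDR = 0.275), but it was without the count filter (FDR = 0.00389) or EV line 2C (FDR = 0.0404 by edgeR). Those fits called the interaction in 3242 of 40750 and 5522 of 15330 genes. The exact permutation p was 0.0108 over all labelings and 0.02 within mice.

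The genes whose pattern was most like that of Lmo2 were again chosen after the values were seen, among 11054 genes with the same minimum average. Nin, a centrosome protein, had r = 0.971 and Cd2, a lymphocyte adhesion receptor, r = 0.970 over the 12 lines. The EV lines of mouse 1 held 2.99 to 3.67 CPM of Cd2 and the EV lines of mouse 2 between 2.40 CPM and the 35.5 CPM of line 2B, whereas all lines with BCR-ABL1 lay between 71.8 and 87.0 CPM. EV line 2B also had the highest Gfi1b level and, after EV line 2A, the widest detection of untested genes. Their part in the Lmo2 result was not tested.

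Lyl1 and Runx1 were the members with the most RNA, and both were modestly higher in BCR-ABL1 lines, by less than the 1.5-fold that the test required. Lyl1 (ENSMUSG00000034041, chr8:84701457-84704715, plus strand), a helix-loop-helix partner of LMO2, had 105, 91.8 and 100.1 CPM in EV lines of mouse 1 and 76.5, 98.7 and 71.9 CPM in those of mouse 2. The BCR-ABL1 lines had 138, 133 and 138 CPM in mouse 1 and 109.7, 99.1 and 101 CPM in mouse 2. Within each mouse every BCR-ABL1 line exceeded every EV line, as was the case for 15.7% of tested genes, while across mice the groups overlapped. The fold was 1.32 (log2 fold change 0.40, SE 0.13, FDR = 1 by glmTreat in edgeR), and the exact permutation p was 0.0130 over all labelings and 0.005 within mice. Against no change the FDR was 0.0166. Nfix, which overlaps Lyl1 on the opposite strand, was at 1.14 to 5.95 CPM over all lines, and Trmt1, within 5 kb of it on the same strand, at 55.1 to 109 CPM. Gm26626 at Runx1, Runx2os1 at Runx2, 4931422A03Rik at Lmo2 and A530013C23Rik near Cebpb had at most 14 counts in any line.

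Runx1 (ENSMUSG00000022952, chr16:92601466-92826149, minus strand) had 109, 117 and 102 CPM in EV lines of mouse 1 and 127, 122 and 139.7 CPM in those of mouse 2. The BCR-ABL1 lines had 156, 140.3 and 156 CPM in mouse 1 and 124, 172 and 168 CPM in mouse 2. All BCR-ABL1 lines of mouse 1 were above its EV lines. This held for at least 15.7% of tested genes, the share higher without overlap in both mice. In mouse 2, however, line 2A of BCR-ABL1 lay among the EV lines. The fold was 1.28 (log2 fold change 0.36, SE 0.10, FDR = 1 by glmTreat in edgeR). The exact permutation p was 0.00866 over all labelings and 0.015 within mice. Against no change the FDR was 0.00845 by edgeR. The log2 fold changes in mouse 1 and mouse 2 were 0.46 (SE 0.08) and 0.26 (SE 0.16), and the interaction was not called (FDR = 0.486).

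**Figure D3:**
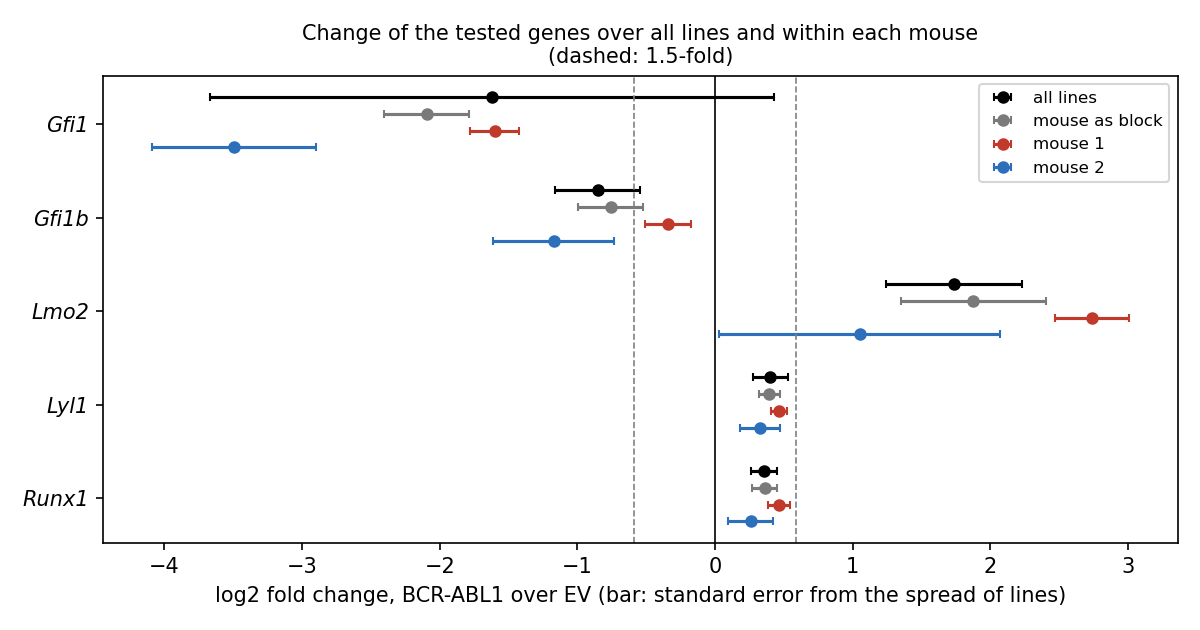
Log2 fold change of BCR-ABL1 over EV lines (horizontal axis) of the 5 tested genes over all lines, with the mouse as a block, and within each mouse, with bars of 1 standard error and dashed lines at a 1.5-fold change. The wide bar of Gfi1 over all lines (SE 2.05) narrows to 0.31 with the mouse as a block, and Lyl1 and Runx1 lie inside the dashed lines.

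Per transcript length the members spanned a wide range. In TPM, that is counts divided by the length of the union of exons and scaled to the same sum in each line, Lyl1 was highest at 100.3 ± 30.5 in EV and 145 ± 18.2 in BCR-ABL1 lines (SD, n = 6), above 94.4% and 95.2% of tested genes. Runx1 followed at 19.4 ± 3.78 and 27.9 ± 4.54 TPM, and Gfi1b at 18.7 ± 8.12 and 12.4 ± 1.85 TPM. The lines of Runx1 and Gfi1b overlapped in EV, whereas in BCR-ABL1 all Runx1 values (21.4 to 33.0 TPM) lay above all Gfi1b values (9.45 to 14.0 TPM). Gfi1 was at 7.35 ± 7.99 and 2.24 ± 2.49 TPM and Lmo2 at 0.699 ± 0.757 and 2.84 ± 0.569 TPM, and their lines overlapped in both conditions. Mean TPM of Cebpb, Cebpd, Runx2, Cebpa and Gata2 was at most 0.166 in either condition, and neighbours in this order overlapped in each condition. With the longest transcript as the length, Runx1 was at 33.5 ± 5.64 and 46.3 ± 7.50 TPM.

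Relatives and partners of the members were mostly expressed. The calls below stand against 5.99% of all tested genes called higher and 6.49% called lower. Of 12 family relatives 7 were tested, with 0 called higher and 1 lower. This was Lmo4, a LIM-only relative of Lmo2, which fell from a range of 126 to 228 CPM with EV to one of 25.1 to 34.9 CPM with BCR-ABL1 (log2 fold change -2.72, SE 0.15, FDR = 8.22e-07 by edgeR). Of 14 partners and corepressors 13 were tested, with 0 higher and 1 lower. The gene that fell was Trib2, a pseudokinase that directs C/EBPα to degradation, from a range of 57.0 to 87.8 CPM to at most 14.7 CPM (log2 fold change -2.85, SE 0.26, FDR = 1.79e-05). Of 12 stem and progenitor factors 6 were tested, with 1 higher and 0 lower. Erg, an ETS factor, had at most 0.358 CPM with EV and at least 46.3 CPM with BCR-ABL1, up to 117.5, without overlap (FDR = 2.27e-06 by edgeR).

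The other 6 stem and progenitor factors, Meis1, Hoxa9, Mecom, Hlf, Nfe2 and Ikzf2, had at most 15 counts in any EV line and at most 2 in any BCR-ABL1 line. For each of the 6 genes the highest count was in EV line 2A, the line with the widest detection of untested genes, whose part in this was not tested. The following genes were named after their values were seen, for their known roles. Cbfb, the shared partner of the runt factors, had a log2 fold change of 0.20 and Ldb1, the scaffold of the LMO2 complex, of 0.24. Kdm1a, the demethylase that GFI1 and GFI1B recruit, had 0.28. Spi1, the myeloid and B cell factor PU.1, had 0.61 (FDR = 0.748 by edgeR), and Tal1, which can replace LYL1 beside LMO2, had 1.98 at no more than 1.23 CPM (FDR = 0.0743 by edgeR). None of these 5 was called. Other uncalled genes of the same lists lay lower, such as Myb at -0.75 and Cbfa2t2 at -0.55. The median log2 fold change was -0.03 in the relatives, -0.15 in the partners and 0.35 in the stem and progenitor factors, against -0.02 over all tested genes.

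**Figure D4:**
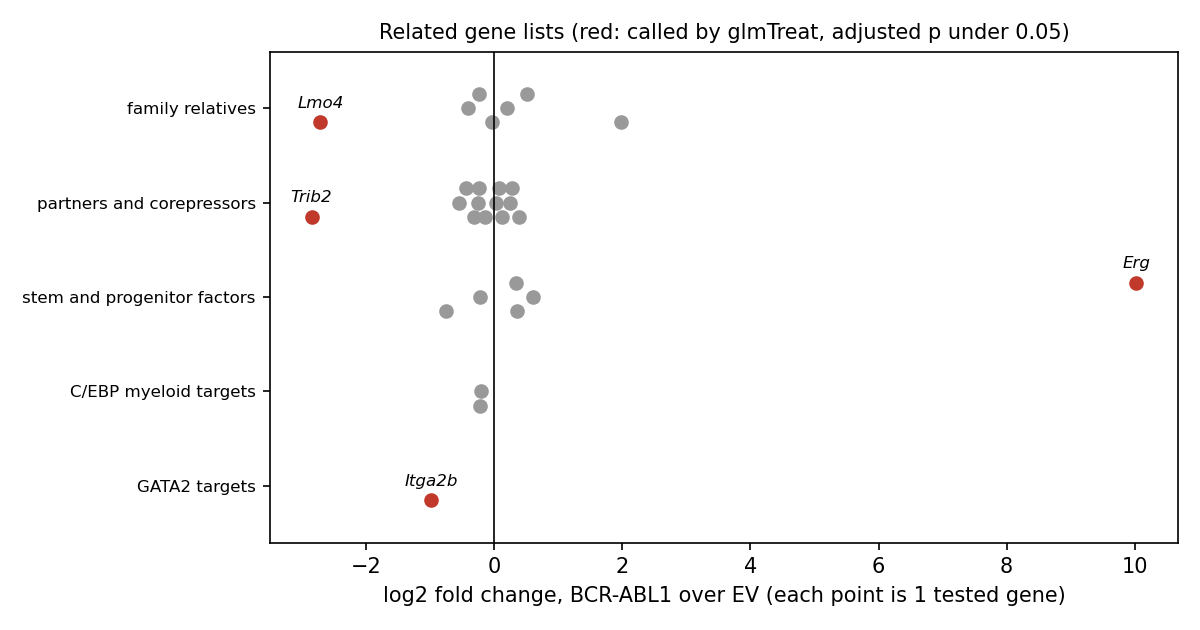
Log2 fold change of BCR-ABL1 over EV lines (horizontal axis) of each tested gene in 5 lists of related genes (rows), with called genes in red. Erg alone lies far to the right at 10.02, and Lmo4, Trib2 and Itga2b are the called genes to the left.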

How the data were processed

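RNA of 12 lines was sequenced on stranded total RNA libraries, and the authors deposited whole-number counts of reads per gene, not normalized and not pooled. The submitters' processing notes name FastQC 0.11.5, Trimmomatic 0.36, TopHat2 2.1.1, Bowtie2 2.3.2, featureCounts 1.5.3, edgeR 3.18.1 and the build GRCm38. The settings of alignment and counting, strand included, are not given in the sources used here. The study tested genes with glmTreat at the fold and threshold used here, on a likelihood ratio fit.

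Counts were analysed in R 4.3.3 with edgeR 4.0.16 (filterByExpr, TMM, quasi-likelihood fit, glmTreat against 1.5-fold, Benjamini-Hochberg adjustment over 15038 genes, threshold 0.05), limma 3.58.1 and DESeq2 1.42.0, after a test on simulated data. The interaction used glmQLFTest, and exact permutation tests used log2 CPM with a prior count of 2. Each SE is that of a difference of means of the same log2 CPM, from the spread between lines. It is not the error of the edgeR fold change beside it, and for low counts the 2 scales differ. Symbols and lengths for 51633 genes came from GENCODE M21. Plots used matplotlib 3.10.9.

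Members and lists were chosen with earlier results of these data known. All members, called genes of the lists, and neighbours within 5 kb with more than 3 counts were to be named, with exceptions said in the text. 1 marker gene is not reported here. The mouse number pairs the lines, since lines of a mouse come from 1 animal. Deviations of EV and BCR-ABL1 lines correlated at 0.0853 to 0.240 for the same mouse and -0.203 to -0.0636 for different mice. Letters alone gave -0.109 to 0.0856. Lines are separate transductions from 2 animals, so p-values measure the spread between lines. Alternatives were other scalings, filters, tests, blocks, each mouse alone and each line left out.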

Additional observations from a re-analysis of the deposited data

Results flagged for a closer look

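Lmo2 in EV line 2B, at 3.04 CPM, lay far from the 5 other EV lines, which held 0.307 to 0.527 CPM. Gata2 in EV line 2A, at 0.368 CPM or 12 counts, lay far from the other EV lines, which held 0 to 5 counts. These 2 came from 20 groups of 6 lines examined with Dixon's criterion, which flags about 1 group in 20 by chance.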

How the results depend on the processing

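All 5 tested members kept their direction in every alternative that gave a value: 23 alternatives for Gfi1 and 24 for each of the others, since the fit of mouse 2 alone dropped Gfi1 at the count filter. Gfi1 ranged from -3.49 to -1.22 on the log2 scale, Gfi1b from -1.17 to -0.33, Runx1 from 0.26 to 0.47, Lmo2 from 1.05 to 2.77 and Lyl1 from 0.33 to 0.48. Main counts of members were 0 higher and 0 lower. The likelihood ratio fit gave 1 higher. The test against no change gave 3 higher and 1 lower, with 3389 genes higher and 3897 lower. With the mouse as replicate block, 1 member, Gfi1, was called lower, and the pairing changed no other member's call. Pairing lines by number and letter as a replicate block gave 1 higher (Lmo2, 2.33, FDR = 0.0314 by edgeR) and 1 lower (Gfi1), with 923 genes higher and 765 lower. Lines of mouse 1 alone gave 1 higher and 1 lower member, and 2512 genes higher and 1877 lower. Lines of mouse 2 alone gave 0 members in either direction, and 614 genes higher and 408 lower. Both fits of 1 mouse held fewer lines than the main fit. The coefficient of variation between lines was 0.386 in EV lines of mouse 2 and 0.0951 in those of mouse 1. In BCR-ABL1 lines it was 0.0843 in mouse 1 and 0.103 in mouse 2. The cause of these differences was not tested.

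Leaving out each line in turn gave 0 to 1 member higher and 0 lower, the 1 being Lmo2 without EV line 2B, and 807 to 1353 genes higher and 802 to 1434 lower, the highest without EV line 2C. Gfi1 with the mouse as block stayed called throughout, at -2.30 to -1.94. Members whose effect differed between the mice numbered 0, but 2 without the count filter (Lmo2, FDR = 0.00389, and Gfi1, FDR = 0.0292 by edgeR) and 0 to 2 with a line left out. Without EV line 2B this was Gfi1 (FDR = 0.00532), and without EV line 2C Gfi1b (FDR = 0.00921) and Lmo2 (FDR = 0.0404). Without the filter and EV line 2A, Gfi1b (FDR = 0.0135) and Lmo2 (FDR = 2.87e-05 by edgeR) had such a difference. This fit was chosen after seeing the data. Genes with such a difference numbered 2536, 3242 of 40750 without the filter, and 1892 to 5522 with a line left out, the highest without EV line 2C. Within EV, 1 member differed between the mice, and 1 to 2 with a line left out, the added one being Gfi1b without EV line 2C (1.38, FDR = 0.00276 by edgeR). Without the count filter, an alternative chosen after seeing the data, 6 members did: Gfi1, Gfi1b (FDR = 0.0434), Lmo2 (FDR = 0.0235), Cebpb, Cebpd and Runx2. Without the filter and EV line 2A there were 5, Cebpd no longer among them. In the unfiltered fit of all lines, all but Gfi1 were higher in mouse 2, as were 5.07% of 40750 genes. The lowest counts, such as 4 reads of Gfi1 in 3 lines of mouse 2, limit the precision of any fold.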
